A study of Mus musculus with 8 samples.

Results

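Imprinted genes that lie inside introns of other genes were followed here, 6 in all: Mcts2, Nnat, Nap1l5, the intronic variant of Inpp5f, Zrsr1 and Peg13. Their maternally methylated regions were taken as 6 fixed windows of the mouse build mm9. The windows were chr2:152511000-152514000 for Mcts2, chr2:157384000-157389000 for Nnat, chr6:58855000-58859000 for Nap1l5, chr7:135830000-135834000 for Inpp5f, chr11:22870000-22874000 for Zrsr1 and chr15:72636000-72643000 for Peg13. They were defined by position. The files listed 158 CpGs in the windows, and 91 of these had at least 10 reads in all 8 libraries, out of 622768 such CpGs in the series.

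The series measured DNA methylation by reduced representation bisulfite sequencing, which reads CpG-rich restriction fragments after bisulfite has converted unmethylated cytosine, and which does not tell 5-methylcytosine from 5-hydroxymethylcytosine. The cells were mouse embryonic stem cells of strain 129/SvP, all grown in serum (FBS) with LIF, the cytokine that keeps such cells undifferentiated. They were left untreated or received 500 µM vitamin C, 1 mM L-proline, or both, for 2 or 5 days. Each of the 8 treatment and day combinations was a single library, so no group had replicates and the error bars below cover read counting only; the labels do not say whether the day 2 and day 5 libraries came from the same cultures. Expression was not analysed here, so the cell type label was not checked against marker genes.

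At an imprinted gene only the copy from 1 parent is active, and the choice is held by a germline methylation mark on the other copy. At these 6 regions the mark comes from the egg: the maternal copy is methylated and silent and the paternal copy is transcribed, so a cell population that keeps the mark carries methylated and unmethylated copies side by side. The mark is kept through early development by the zinc finger protein ZFP57, which binds the methylated hexamer TGCCGC, while vitamin C is a cofactor of the TET enzymes, which oxidise 5-methylcytosine, and L-proline is an amino acid known to shift mouse embryonic stem cells towards a primed-like state.

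The host genes were named from RefSeq (GRCm38.p6), without use of its coordinates. Mcts2, a retrogene copy of the translation factor gene Mcts1, lies in H13. Nnat, which encodes the small membrane protein neuronatin, lies in Blcap, and Nap1l5, a nucleosome assembly protein gene, lies in Herc3. Zrsr1, a retrogene related to the splicing factor U2AF, lies in Commd1, and the long noncoding RNA Peg13 lies in Trappc9. The Inpp5f variant is a shorter transcript that starts inside Inpp5f, an inositol phosphatase gene.

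The RefSeq promoters (GRCm38.p6, 250 bases before to 50 after the gene start, 5′ to 3′ on the gene's own strand) are shown for the 4 genes whose own promoter matched by symbol, because they show which part of each region the libraries read. In the first 3 sequences, capitals mark the CpGs listed in at least 1 library. These were placed by matching the spacing of the listed CpGs to the promoter, which aligned 13 of 13 CpGs for Mcts2, 4 of 4 for Nnat and 8 of 8 for Zrsr1, against 1, 2 and 1 at the next best placement. A placement was used only with at least 4 aligned CpGs. In Nap1l5 the best placement aligned 2, against 1 at the next best, so there capitals mark the hexamer TGCCGC.
Mcts2 promoter, plus strand: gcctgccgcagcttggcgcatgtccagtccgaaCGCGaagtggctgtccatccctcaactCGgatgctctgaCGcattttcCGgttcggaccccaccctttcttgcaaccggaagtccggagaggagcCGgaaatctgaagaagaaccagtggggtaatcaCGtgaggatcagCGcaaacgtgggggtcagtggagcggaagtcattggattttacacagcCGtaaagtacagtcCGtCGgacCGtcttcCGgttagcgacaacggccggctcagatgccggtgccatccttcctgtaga
Nnat promoter, plus strand: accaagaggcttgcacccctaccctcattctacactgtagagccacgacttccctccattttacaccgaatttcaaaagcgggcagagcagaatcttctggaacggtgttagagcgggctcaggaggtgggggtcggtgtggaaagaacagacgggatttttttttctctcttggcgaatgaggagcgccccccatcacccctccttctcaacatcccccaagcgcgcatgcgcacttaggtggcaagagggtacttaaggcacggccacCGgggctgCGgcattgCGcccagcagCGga
Zrsr1 promoter, plus strand: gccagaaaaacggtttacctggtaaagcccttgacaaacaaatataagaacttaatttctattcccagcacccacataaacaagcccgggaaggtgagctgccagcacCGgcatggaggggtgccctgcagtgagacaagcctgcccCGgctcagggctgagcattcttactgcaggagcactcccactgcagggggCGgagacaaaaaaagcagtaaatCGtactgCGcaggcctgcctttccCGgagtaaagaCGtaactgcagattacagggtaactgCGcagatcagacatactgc
Nap1l5 promoter, minus strand: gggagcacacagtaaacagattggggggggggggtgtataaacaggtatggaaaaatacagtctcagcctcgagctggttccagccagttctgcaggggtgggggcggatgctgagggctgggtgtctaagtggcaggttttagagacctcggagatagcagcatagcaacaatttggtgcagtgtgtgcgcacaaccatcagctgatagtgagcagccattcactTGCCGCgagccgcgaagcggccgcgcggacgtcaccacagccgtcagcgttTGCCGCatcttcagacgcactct
The Mcts2 promoter held 25 CpGs, Nnat and Nap1l5 17 each and Zrsr1 10, against a median of 7 over the 32817 mouse promoters of the table. The hexamer TGCCGC, searched on both strands (GCGGCA on the other), occurred 1 time in Mcts2, 1 time in Nnat, 2 times in Nap1l5 and 0 times in Zrsr1, and 11.6% of all promoters of this length held it. A match is a run of letters and not a binding site. All 13 matched Mcts2 CpGs and 5 of the Zrsr1 CpGs had 10 reads in every library, whereas none of the Nnat promoter CpGs did. The 7 Nnat CpGs used below lay 1459 to 1780 bp after the gene start.

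Only a small stretch of each window was measured in all libraries. The common CpGs spanned 295 bp in Mcts2 (21 CpGs), 322 bp in Nnat (7), 244 bp in Nap1l5 (16), 299 bp in Inpp5f (7), 1091 bp in Zrsr1 (28) and 181 bp in Peg13 (12). Neighbouring CpGs often sat on the same reads, so the 91 CpGs were grouped into 37 read blocks, runs of CpGs within 100 bp with nearly equal coverage. The level of a window is the share of methylated reads summed over its CpGs, so a read block with several CpGs weighs more in it. The 95% Wilson interval was taken at that level, with a depth that counts each read block once. By that count a window rested on 68 reads (Nnat, untreated day 5) to 834.5 reads (Zrsr1, both supplements on day 2).

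Most of the 48 levels lay below an equal share of methylated and unmethylated copies: 44 were under 50%, 3 were over it, and the median was 27.4%. Only 7 of the 48 intervals held 50%. In bulk DNA, fewer cells with the mark and fewer marked CpGs per cell cannot be told apart. Averaged over the libraries, Peg13 was highest at 45.2% ± 7.94 (SD over 8 libraries), followed by Nap1l5 at 34.1% ± 6.92, Nnat at 29.8% ± 17.9, Inpp5f at 27.7% ± 7.95, Zrsr1 at 23.3% ± 4.21 and Mcts2 at 18.3% ± 5.49. Peg13 exceeded Nap1l5 in 7 of 8 libraries, by 11.1 points on average. The steps between the other neighbours in this order were 2.06 to 5.04 points, each smaller than the SD of at least 1 of the 2 windows compared, and held in 4 to 6 of the 8 libraries.

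**Figure D1:**
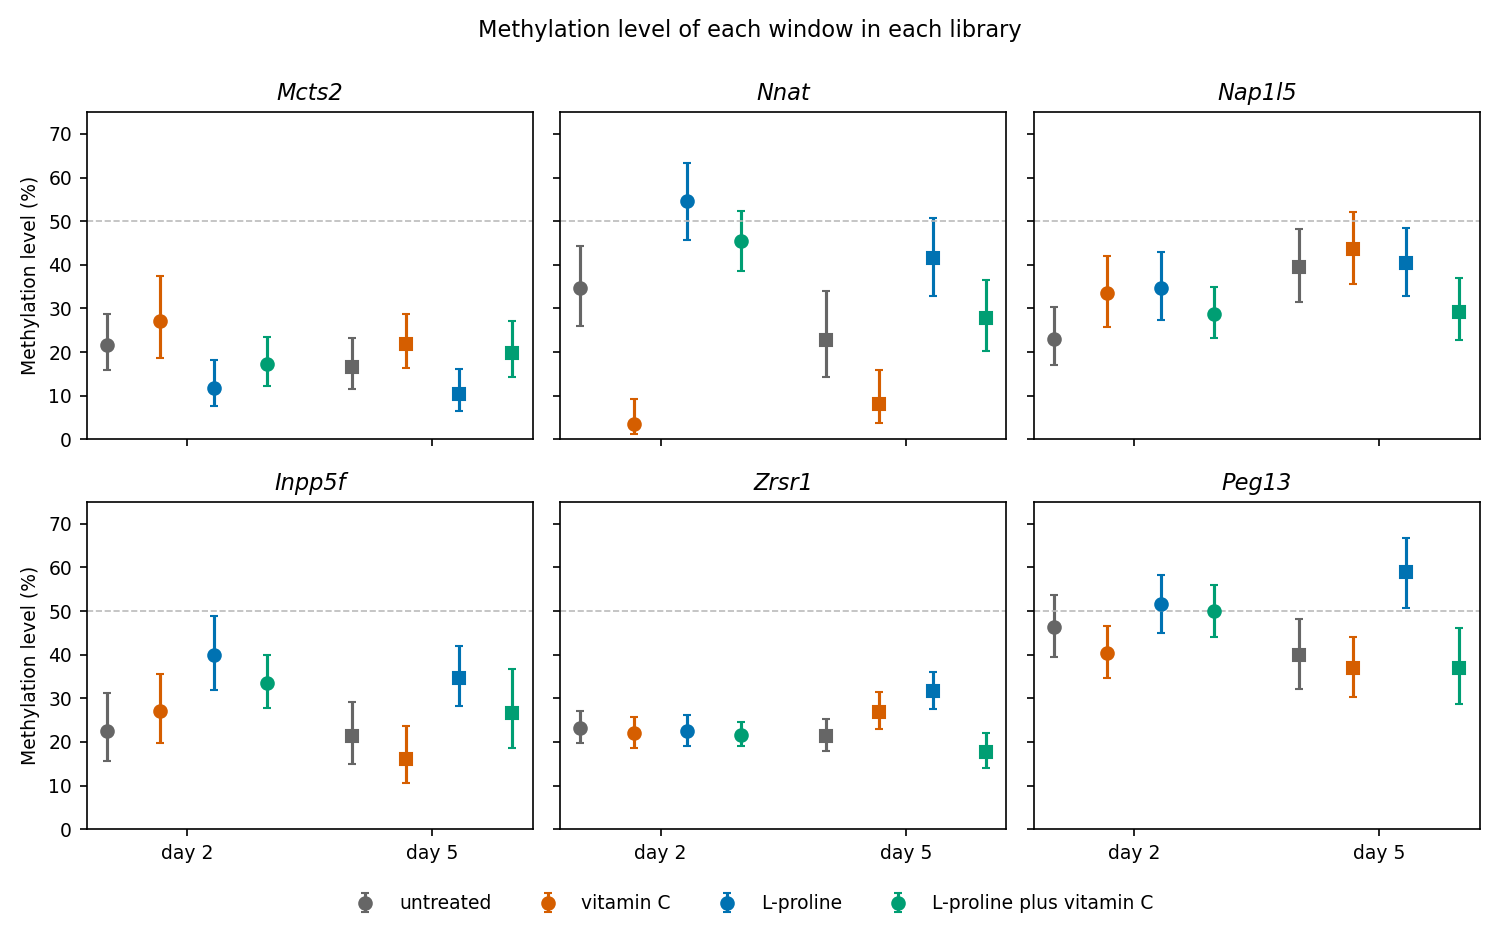
Methylation level (%) of the 6 windows in each library, with 95% Wilson intervals at read block depth. Circles are day 2, squares are day 5, colours are treatments, and the dashed line is 50%. Nnat ranged from 3.47% to 54.7% over the libraries, whereas Zrsr1 stayed between 17.7% and 31.6%.

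Nnat differed most between treatments. On day 2 its level was 34.6% untreated, 3.47% with vitamin C, 54.7% with L-proline and 45.4% with both. On day 5 the values were 22.7%, 8.0%, 41.5% and 27.7%. On both days the vitamin C library was lowest and the L-proline library highest, and the interval of the vitamin C library (1.27% to 9.15% on day 2) did not overlap that of any other day 2 library. The place of the untreated and combined libraries depended on the CpGs used. On day 5, with all CpGs listed for each library, the untreated level was 41.3% and the combined level 35.4%. At a minimum of 20 reads, where 1 CpG remained, the combined day 5 library (63.3%) exceeded the L-proline library (53.6%). On day 2 that CpG read 59.5% untreated and 42.6% with both.

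With vitamin C, Nnat was lower in 4 of 4 matched pairs, with differences of -31.1, -9.27, -14.7 and -13.8 points. The mean difference was -17.2 points ± 9.57 (SD, n = 4 pairs; exact two-sided sign-flip permutation p = 0.13, the smallest that 4 pairs allow). In a limma fit over 50167 genomic tiles of 1 kb and the 6 windows, with 1 term each for the supplements and for the day, Nnat was the only window called for vitamin C (log2 odds -1.69 ± 0.53 SE, adjusted p = 0.0347). A feature was called when the mean difference reached 10 points and the adjusted p was under 0.05, and 23.2% of tiles were called lower under the same rule. The call was lost without the untreated day 2 (adjusted p = 0.0935), L-proline day 2 (0.0509), vitamin C day 2 (0.0663), untreated day 5 (0.102), vitamin C day 5 (0.0706) or combined day 5 library (0.0855), and also at a pseudocount of 0.5 (0.0525), at 20 reads (0.102) and with libraries centred to 1 median (0.822). Over all 13 alternatives the adjusted p ran from 0.0205 to 0.822. Tiles matched to the Nnat level in the untreated library of the other day had a median difference of -17.7 points, close to the Nnat value.

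The L-proline difference at Nnat had the opposite sign. Nnat was higher with L-proline in 4 of 4 pairs, by 20.04, 41.9, 18.8 and 19.7 points, and the 95% interval of each pair excluded 0. With read blocks counted once in the level too, the day 2 pair without vitamin C read 52.5% against 42.75%. No interval was computed for those levels. The mean of the 4 differences was 25.1 points ± 11.2 (exact sign-flip permutation p = 0.13), against a median of 8.37 points over tiles matched to the Nnat level. Of all 50167 tiles, 107 (0.213%) had a larger mean gain. Among the 4122 tiles with an 8-library mean of 18.3% to 45.2% the share was higher, at 1.6%. In limma the log2 odds were 2.19 ± 0.53, but the adjusted p was 0.226, and no tile or window passed the call for L-proline (0.0% of tiles, although an unadjusted limma p under 0.05 was reached by 7613 tiles that were higher and 385 that were lower).

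The Nnat difference ran through all of its read blocks. Of the 16 comparisons of 4 read blocks in 4 pairs, 15 were lower with vitamin C and 15 were higher with L-proline. The first block, 4 CpGs at chr2:157387273-157387320, read 0.0% with vitamin C, 7.5% untreated, 47.6% with both and 60.7% with L-proline on day 2. On day 5 the same block read 10% with vitamin C, 21.1% untreated, 9.09% with both and 39.3% with L-proline, so the gain of the combined library in this block was seen on day 2 only. Within 20 kb on either side of the window, 23 further CpGs had a summed level of 2.10% to 6.15%, with a difference of -1.14 points for vitamin C and 1.59 points for L-proline.

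**Figure D2:**
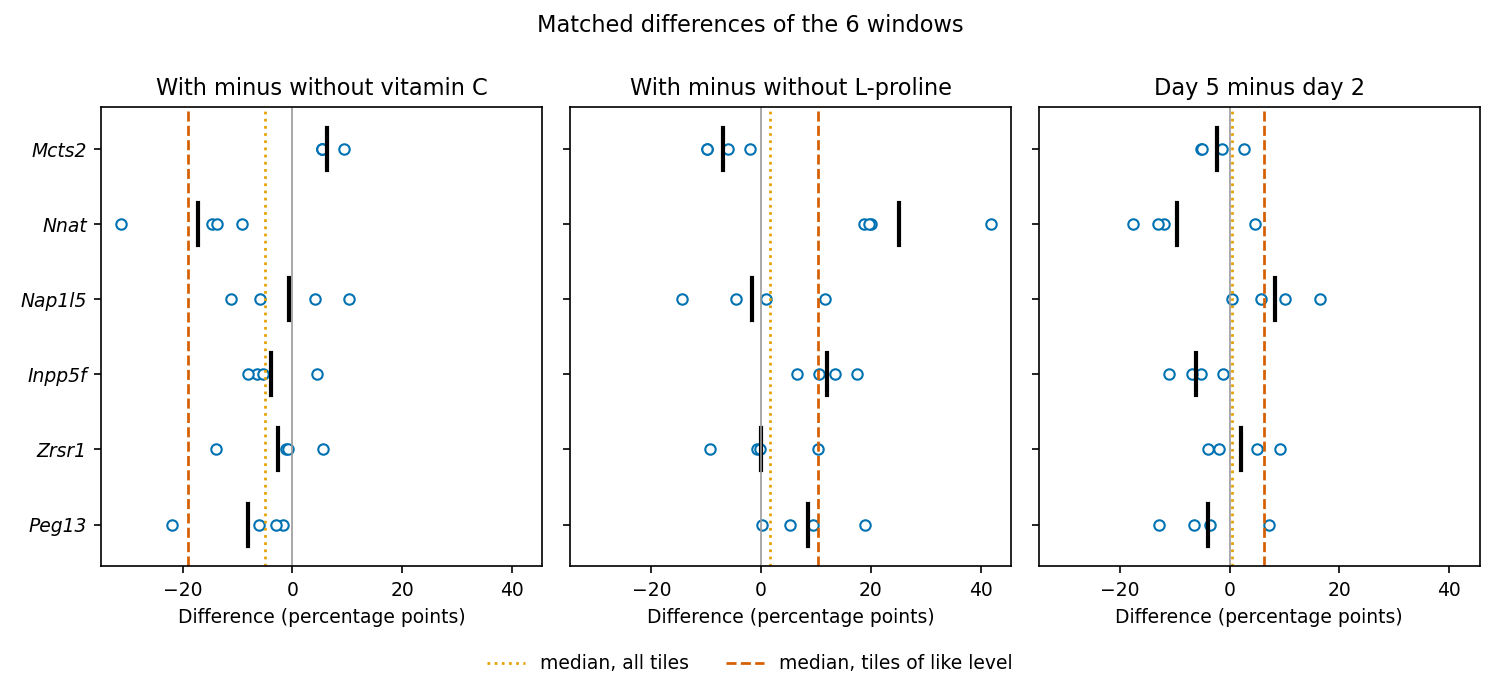
Matched differences in methylation (percentage points) for each window; circles are the 4 pairs, black bars their mean, the dotted line the median over all 50167 tiles and the dashed line the median over 4122 tiles of like level (8-library mean of 18.3% to 45.2%). With vitamin C the Mcts2 pairs all lie above 0 and the Nnat and Peg13 pairs all lie below it.

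At Mcts2 both supplement differences had the sign opposite to the genome's median. Its level on day 2 was 21.6% untreated, 27.0% with vitamin C, 11.9% with L-proline and 17.2% with both. On day 5 it was 16.5%, 21.9%, 10.4% and 19.9%. The vitamin C library was the highest and the L-proline library the lowest of the 4 on each day, although their intervals overlapped that of the untreated library.

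The vitamin C difference at Mcts2 was 6.39 points ± 2.03 (SD over 4 pairs), with every pair higher, and 1 of the 4 pair intervals excluded 0. Mcts2 was the single window of 6 that was higher in every vitamin C pair. Among all tiles 1.25% were higher in 4 of 4 pairs, and 0.0% of the 4122 tiles whose 8-library mean lay within the range of the windows' means (18.3% to 45.2%), called tiles of like level here. Only 10 of 50167 tiles had a larger mean gain with vitamin C. The L-proline difference at Mcts2 was -6.95 points ± 3.70, lower in 4 of 4 pairs; 1.6% of all tiles and 0.17% of tiles of like level were lower in every L-proline pair. Each sign-flip test gave an exact permutation p of 0.13, and in limma Mcts2 passed for neither supplement (adjusted p = 0.166 for vitamin C and 0.351 for L-proline).

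The mean Mcts2 differences were largest just upstream of the promoter shown above. The 8 common CpGs before the first base of that sequence lay in 2 read blocks at chr2:152512590-152512629. On day 2 their level was 23.5% untreated, 38.8% with vitamin C, 8.57% with L-proline and 17.8% with both, and on day 5 it was 13.1%, 36.4%, 3.46% and 19.6%. Their mean difference was 15.99 points ± 5.77 for vitamin C, higher in 4 of 4 pairs, and -15.6 points ± 4.70 for L-proline, lower in 4 of 4 pairs.

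Summed over the 13 CpGs within the promoter sequence, the level varied less with treatment, but single read blocks there moved in opposite directions. With L-proline on day 2, chr2:152512667-152512715 read 5.38% against 18.6% untreated, and chr2:152512855-152512884 read 38.7% against 18.3%. The summed level averaged 17.6% and ranged from 12.4% (vitamin C day 5) to 22.6% (vitamin C day 2). The vitamin C difference there was 0.659 points ± 4.10, higher in 3 of 4 pairs, and the L-proline difference was -1.45 points ± 6.50, higher in 1 of 4. The window's vitamin C value therefore rested on 2 read blocks with 12 to 44 reads per CpG, and whether the 2 stretches differ was not tested. At a minimum of 20 reads a single Mcts2 CpG remained, with a vitamin C difference of 0.44 points. In the 42 further CpGs within 20 kb of the window the differences had the opposite signs, -11.8 points for vitamin C and 6.52 points for L-proline.

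**Figure D3:**
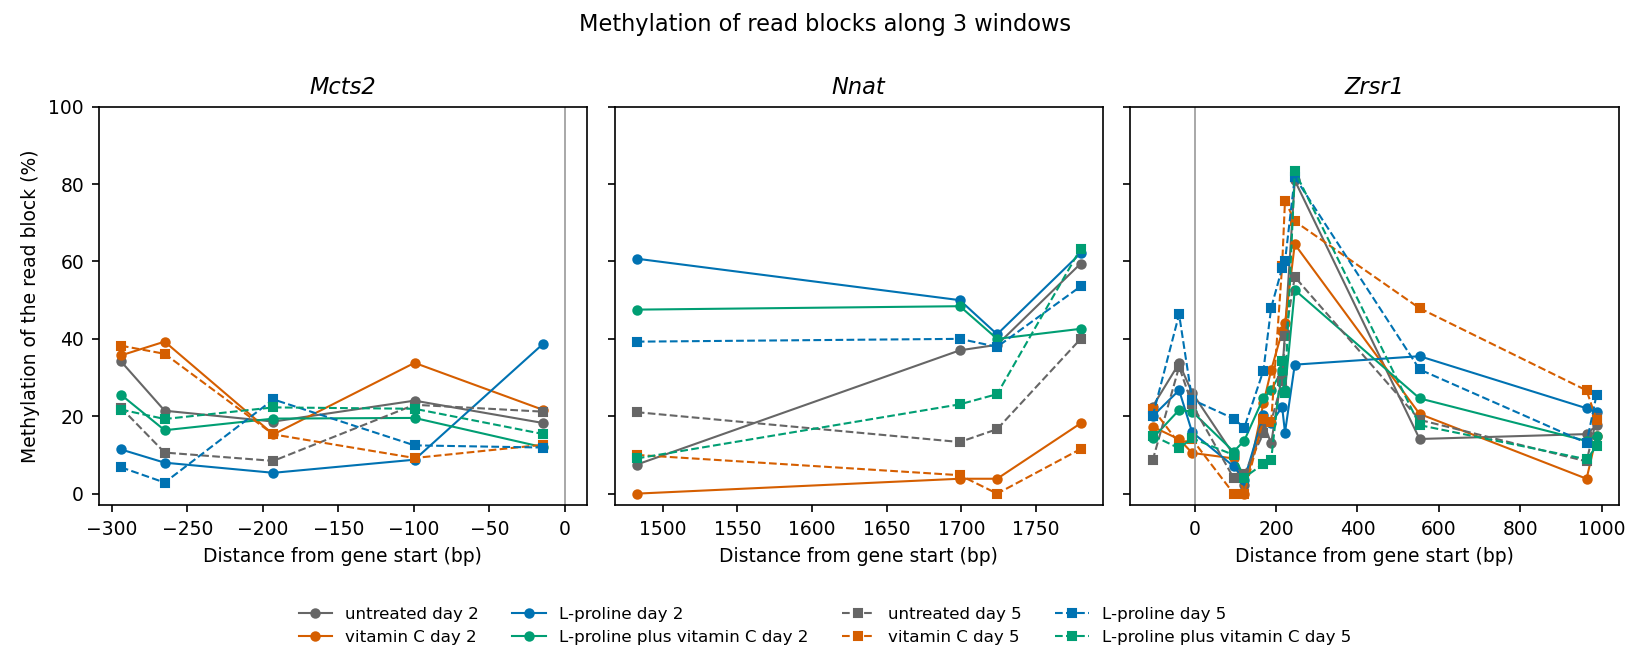
Methylation (%) of each read block against its distance from the matched gene start (bp) in Mcts2, Nnat and Zrsr1; lines join the blocks of 1 library, solid for day 2 and dashed for day 5. In Mcts2 the libraries are spread widest in the 2 leftmost blocks, and in Zrsr1 all libraries but L-proline day 2 are highest in the same short stretch after the start.

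Inpp5f was higher with L-proline on both days. Day 2 levels were 22.5% untreated, 27.0% with vitamin C, 40% with L-proline and 33.5% with both, and day 5 levels were 21.3%, 16%, 34.7% and 26.6%. The 2 libraries that held L-proline were the highest on each day. The L-proline difference was 12.03 points ± 4.66 (SD, n = 4 pairs; higher in 4 of 4; exact sign-flip permutation p = 0.13), and 14 of 16 read block comparisons were higher. Tiles matched to its level had a median difference of 7.37 points, and the limma adjusted p of Inpp5f was 0.286. Its vitamin C difference was -3.83 points ± 5.71, with 1 of 4 pairs higher, against a median of -15.1 points in matched tiles.

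Peg13 was the window nearest to an equal share of methylated copies. Its day 2 levels were 46.4% untreated, 40.4% with vitamin C, 51.7% with L-proline and 50% with both, and its day 5 levels were 39.9%, 36.9%, 58.9% and 37.0%. The L-proline day 5 library stood above the other 3 libraries of that day. The L-proline difference was 8.49 points ± 8.02, higher in 4 of 4 pairs but by 0.109 points in the smallest, and the vitamin C difference was -8.15 points ± 9.34, lower in 4 of 4 pairs. Without the L-proline day 5 library the vitamin C difference was -3.57 points and the L-proline difference 4.98 points over the 3 remaining pairs. The limma adjusted p was 0.326 for vitamin C and 0.505 for L-proline.

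Nap1l5 did not follow either supplement in a fixed direction. It read 23.0% untreated, 33.4% with vitamin C, 34.8% with L-proline and 28.8% with both on day 2, and 39.5%, 43.6%, 40.4% and 29.3% on day 5. Each supplement alone was above the untreated library on both days, while the combined library was below each single supplement on both days. The mean differences were -0.677 points ± 9.72 for vitamin C and -1.58 points ± 10.9 for L-proline, each with 2 of 4 pairs higher, against medians of -17.3 and 9.25 points in matched tiles.

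Zrsr1 had the smallest spread over libraries as a whole window, but not along its length. Its levels were 23.2% untreated, 22.0% with vitamin C, 22.4% with L-proline and 21.7% with both on day 2, within 2 points of each other, and 21.3%, 26.9%, 31.6% and 17.7% on day 5. The day 5 interval of the L-proline library (27.5% to 36.1%) did not overlap those of the untreated and the combined library. Averaged over libraries, its 13 read blocks ran from 5.75% to 65.4%. The lowest was a single CpG at chr11:22872127, and the highest was 3 CpGs at chr11:22872238-22872264, which read 33.3% to 83.3% over the libraries.

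The promoter end of Zrsr1 was lower with vitamin C. The tile chr11:22871001-22872000 holds the 5 common CpGs that fall in the promoter sequence above, in 3 read blocks. On day 2 it read 29.3% untreated, 13.9% with vitamin C, 22.8% with L-proline and 20.1% with both, and on day 5 25.8%, 15.0%, 35.9% and 13.1%. The vitamin C difference was -12.9 points ± 8.41, lower in 4 of 4 pairs, and the tile passed the call by a narrow margin (limma adjusted p = 0.0494). It kept the call without the L-proline day 2 library (adjusted p = 0.0494) but lost it without any of the other 7 libraries (0.0665 to 0.146), at 20 reads (0.0688), at a pseudocount of 0.5 (0.0621), with read blocks counted once (0.104) and after centring (0.528).

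The other Zrsr1 tile, chr11:22872001-22873000 with 23 CpGs inside the gene, gave 0.879 points ± 9.35 for vitamin C, with 2 of 4 pairs higher (limma adjusted p = 0.908). Of the 7 tiles that hold the common CpGs of the windows, those of Nnat and the promoter end of Zrsr1 were called lower with vitamin C, 2 of 7 beside 23.2% of all tiles, a share near the background. Whether the Zrsr1 tiles differ from each other was not tested.

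Set against the genome, 5 of the 6 windows had a smaller mean vitamin C loss, or none, than the median of tiles matched to their level. Nnat was close to that median on average over the pairs, but not in each pair. Nnat and Peg13 were lower in 4 of 4 vitamin C pairs, 2 of 6 windows, where 49.0% of all tiles and 80.0% of tiles of like level were. With read blocks counted once, Peg13 was lower in 3 of 4 vitamin C pairs and higher in 3 of 4 L-proline pairs, and at 20 reads in 3 and 2 of 4. At 20 reads, with 1 CpG each, Nnat was lower and Mcts2 higher in 3 of 4 vitamin C pairs, and Mcts2 was lower in 3 of 4 L-proline pairs. The interval of the difference excluded 0 in 8 of 24 vitamin C window pairs (64.0% in tiles of like level) and in 13 of 24 L-proline pairs (38.5%). Nnat, Inpp5f and Peg13, 3 of 6 windows, were higher in every L-proline pair, against 28.0% of all tiles and 59.0% of tiles of like level. The median of the 6 windows was -3.20 points for vitamin C and 4.26 for L-proline. The same medians were -5.07 and 1.60 points over all tiles, and -19.0 and 10.3 points over tiles of like level. The tiles of like level were picked by the mean of the same 8 libraries, so these comparisons are descriptions without a test.

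The combined treatment gave values between the single supplements in 4 windows. The share of tiles with this order was not counted, so it cannot be called particular to these windows. For Mcts2, Nnat, Inpp5f and Peg13 the library with both supplements lay between the vitamin C and the L-proline library on both days. For Peg13 on day 5 this rested on 37.0% against 36.9%, and with read blocks counted once the combined library (35.9%) was below the vitamin C library (39.0%). On day 2 the combined Peg13 library (54.6%) was above the L-proline library (51.1%) with read blocks counted once. At 20 reads, with 1 CpG each, the order was lost on day 5 for Mcts2, Nnat and Peg13. Peg13 also lost it on day 2 at 20 reads, with 51.3% in the combined library against 47.5% with L-proline. At Nnat on day 2, both supplements gave 10.8 points more than untreated, where the sum of the single differences was -11.1 points. On day 5 the values were 4.98 and 4.07 points. The day 2 gain depended on the CpGs used. The combined library read 44.4% against 42.75% untreated with read blocks counted once, and 43.5% against 41.8% with all CpGs listed. At 20 reads, with 1 CpG, it was below the untreated library (42.6% against 59.5%). On day 5 the combined library was below the untreated one with all CpGs listed (35.4% against 41.3%) and with the mean of the CpG percentages (21.2% against 22.0%). Nap1l5 and Zrsr1 did not show this order on either day, and at Zrsr1 the combined library was the lowest of the 4 on both days. On day 2 the Zrsr1 result rested on 21.7% against 22.0% with vitamin C. With read blocks counted once its combined library (22.2%) lay between L-proline (19.8%) and vitamin C (22.7%) on day 2. With all CpGs listed it also lay between them (19.7%, against 20.9% with L-proline and 19.1% with vitamin C).

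Between the days, 2 windows differed in the same direction in every pair. Nap1l5 was higher on day 5 in 4 of 4 pairs, by 8.20 points ± 6.81, and Inpp5f was lower in 4 of 4, with a mean difference of -6.09 points ± 4.06 (each with an exact sign-flip permutation p of 0.13). With read blocks counted once each of these held in 3 of 4 pairs, and at 20 reads in 2 of 4 for Nap1l5 and 3 of 4 for Inpp5f. Among all tiles 11.2% were higher and 2.54% lower in every day pair, and among tiles of like level 17.6% and 0.873%. Nnat was lower on day 5 in 3 of 4 pairs (mean -9.55 points ± 9.71), and the vitamin C library, which was already lowest on day 2, was the exception. The interval excluded 0 in 6 of 24 day pairs, against 33.0% in tiles of like level, and limma called no window and 0.0% of tiles for day (an unadjusted p under 0.05 was reached by 3291 higher and 488 lower tiles).

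Single CpGs were compared between the libraries of 12 matched pairs with Fisher's exact test, adjusted over all 622768 CpGs, and called when the levels were 20 points or more apart and the adjusted p was below 0.05. These tests compare pairs of libraries, not conditions. Of the 91 member CpGs, 12 calls were made in 4 comparisons. Nnat gave 5 calls, all higher with L-proline in the presence of vitamin C on day 2 (0.355% of all CpGs called); 4 of them formed the first read block, at 0 of 24 or 25 reads against 44.4% to 55.2%, so they are not independent. In the vitamin C comparison with L-proline on day 5 (5.67% of all CpGs called), 4 Peg13 CpGs at chr15:72640147-72640196 fell from 73.8% to 93.8% down to 22.2% to 39.1%, and 1 Zrsr1 CpG was lower. The Peg13 CpGs at chr15:72640184-72640196 each had 16 reads at 93.8% in the L-proline day 5 library, so these calls are not independent either. In this comparison 5 of 91 member CpGs were called, a share near that of all CpGs.

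The CpG at chr11:22872220 in Zrsr1 was called in 2 comparisons, more than any other member CpG. It read 58.9% with vitamin C on day 5 against 29.0% untreated (Fisher's exact test, adjusted p = 0.0494; 2.96% of all CpGs called). With L-proline it read 58.3% on day 5 against 22.4% on day 2 (adjusted p = 0.0487; 0.892% of all CpGs called). The other 8 comparisons called 0 member CpGs, with 2 to 18 of 91 (2.20% to 19.8%) at an unadjusted p under 0.05, against 3.64% to 7.02% of all CpGs; the same comparisons called 0.0222% to 0.722% of all CpGs.

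**Figure D4:**
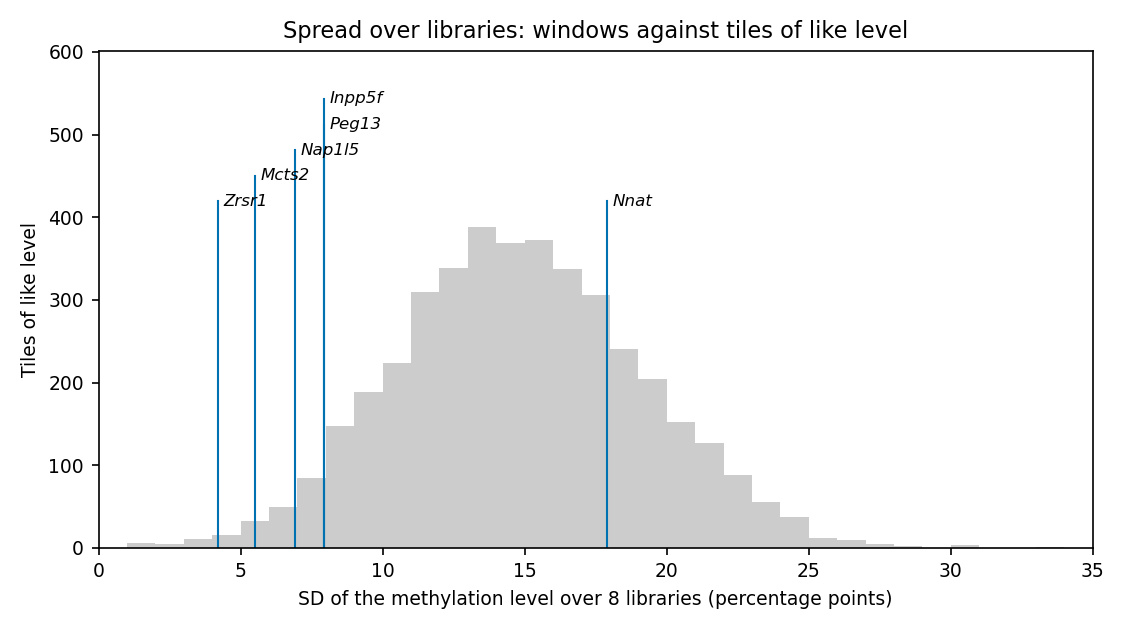
Standard deviation of the methylation level over the 8 libraries (percentage points) for 4122 tiles of like level (grey histogram, number of tiles) and the 6 windows (lines). Nnat, at 17.9 points, lies above the tiles' median of 14.7, and the other 5 windows lie at the left edge, between 4.21 and 7.95.

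Nnat also stood apart from the other windows in its spread over libraries. The SD of Mcts2, Nap1l5, Inpp5f, Zrsr1 and Peg13 lay between 4.21 and 7.95 points, and only 0.582% to 4.83% of tiles of like level varied less. The SD of Nnat was 17.9 points, and 76.7% of such tiles varied less. Tiles with few CpGs carry more counting error. Among the 911 tiles of like level with at least 7 CpGs the median SD was 13.3 points, 0.329% to 7.90% varied less than these 5 windows, and 85.3% varied less than Nnat.

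Classical maternally methylated regions gave a second reference for the 6 windows. Of 9 such regions placed from general knowledge of mm9, 6 held at least 3 common CpGs (Peg3, Kcnq1ot1, Plagl1, Grb10, Igf2r and the Gnas 1A region; 217 CpGs). Their median levels were 2.93% to 45.7%, with Gnas 1A the lowest and the other 5 at 34.4% or above. Gnas 1A held 101 of the 217 CpGs and read 2.28% to 8.10% over the libraries. Whether its placement met the methylated region was not checked. The medians of the 6 windows were 43.4% for Peg13, 34.1% for Nap1l5 and 18.5% to 31.2% for the other 4. The SD of the classical regions over libraries was 2.02 to 8.28 points, a range that includes the 5 windows other than Nnat. The low end was that of Gnas 1A. Without it the range began at 4.87 points (Peg3), and Zrsr1, at 4.21, lay below it. Vitamin C differences over the 6 classical regions were -7.84 to -0.0022 points and L-proline differences -1.71 to 7.58 points. The differences of Nnat lay outside these ranges for both supplements, as did those of Mcts2 in the opposite direction. The L-proline difference of Inpp5f lay above its range. Peg13, at -8.15 and 8.49 points, was outside by less than its SD over pairs (9.34 and 8.02). Without the L-proline day 5 library it gave -3.57 and 4.98 points, with the classical ranges not computed anew. The paternally methylated IG-DMR of the Dlk1-Meg3 cluster, with 5 CpGs, gave differences of -13.3 points for vitamin C and 23.7 points for L-proline, of the same sign and similar size as those of Nnat.

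Surrounding sequence was read in 3 of the 6 windows only. Within 20 kb of Nnat and of Zrsr1 the CpGs outside the window had median levels of 2.89% and 2.80%, and 21 of 23 and 35 of 39 of them averaged under 10%. Around Mcts2 the level was 10.8% to 34.1%, a sum over 25 CpGs under 10%, 14 in between and 3 over 60%. No common CpG lay within 20 kb of Nap1l5, Inpp5f or Peg13. The mean profile of the 6 windows ranged from 25.6% (vitamin C day 2) to 36.3% (L-proline day 5). Of 15638 tiles with at least 10 common CpGs, the closest to it were chr5:122302001-122303000 (root mean square difference 3.57 points over 8 libraries), chr10:79440001-79441000 (3.86), chr7:134588001-134589000 (3.99), chr5:143549001-143550000 (4.44) and chr7:104548001-104549000 (4.50). They averaged 28.4%, 31.4%, 30.3%, 31.5% and 27.8%, and are given by position because no mm9 annotation was used here.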

How the data were processed

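The submitters' processing notes name CASAVA, BSMAP 2.88 and mm9, without roles or settings. The authors deposited, for each CpG and library, a methylated fraction from 0 to 1 and the coverage in reads. Every listed coverage was at least 10, and 762041 to 1006832 CpGs were listed per library. Median coverage over the common CpGs was 27 to 56 reads. Unconverted reads on the lambda contig were 0.195% to 0.513%. The handling of duplicate reads is unknown.

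Methylated reads were taken as coverage times fraction, rounded. Levels, matched differences, limma 3.58.1 (R 4.3.3, pseudocount 1, tiles with at least 3 CpGs, Benjamini-Hochberg adjustment) and Fisher's exact tests were computed from reads of CpGs covered in all 8 libraries. Read blocks joined CpGs within 100 bp whose coverage differed by at most 10% in at least 6 libraries. They, and the interval of each pair's difference (Newcombe's method at read block depth), were chosen after seeing the data. Groups came from the sample titles. Scripts were tested on simulated data. The windows, comparison regions and gene lists were chosen with earlier results of these data known. All 6 windows are named, single CpGs only where called in at least 2 comparisons or counted in a group of 5 or fewer (the latter chosen after their values were seen), as are the read blocks. The 5 nearest tiles follow from the root mean square rule. Minimum coverage, pseudocount, centring, CpG set, averaging and left-out libraries were varied. No RefSeq promoter of the Inpp5f variant or Peg13 was matched.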

Additional observations from a re-analysis of the deposited data

Results flagged for a closer look

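Nap1l5 was the window where the difference for 1 supplement pointed in opposite directions with and without the other. Such a split was searched for in all windows and contrasts, and the share of tiles that show it was not counted. With L-proline present, the vitamin C difference at Nap1l5 was below 0 in both pairs, at -5.98 points on day 2 and -11.2 points on day 5 (mean -8.58). Without L-proline it was above 0 in both pairs, at 10.4 and 4.05 points (mean 7.23). The gap between these means was -15.8 points. The same 8 values can be read the other way round: the L-proline differences were -4.63 and -14.3 points with vitamin C (mean -9.48) and 11.7 and 0.902 points without it (mean 6.32), again a gap of -15.8 points. Both statements describe 1 interaction, seen because every pair of 1 kind moved up and every pair of the other kind moved down, and the difference was not tested. Of the 8 pair intervals, 3 excluded 0.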

How the results depend on the processing

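Under the minimum coverage, CpG set, averaging and read block alternatives, the 18 matched differences kept their sign except these. Vitamin C at Nap1l5 became 3.70 points at 20 and at 30 reads (1 CpG left), 0.383 with the mean of CpG percentages and 0.963 with read blocks once. Vitamin C at Zrsr1 became 0.549 points at 30 reads. L-proline at Zrsr1 became -3.50 points at 30 reads, -0.399 with all CpGs listed and -1.66 with read blocks once. At 20 reads Mcts2, Nnat, Nap1l5 and Peg13 kept 1 CpG each, and the Mcts2 vitamin C difference shrank to 0.44 points; at 30 reads Mcts2, Nnat, Inpp5f and Peg13 had no CpG and no value. With 1 library left out (3 pairs), the sign also changed for vitamin C at Nap1l5 (up to 2.82) and Zrsr1 (up to 1.23), L-proline at Nap1l5 (up to 2.67) and Zrsr1 (down to -3.42), and day at Zrsr1 (down to -0.29). The limma count of windows called for vitamin C went from 1 to 0 at 20 reads, at a pseudocount of 0.5 and with centring, and was 0 to 1 with a library left out. Tiles called went from 11645 to 3115 at 20 reads and 205 with centring, and to 2655 to 14136 with a library left out (7737 without the combined day 2, 3092 without the untreated day 5, 4708 without the L-proline day 5, 3741 without the vitamin C day 5 and 2655 without the combined day 5 library). The median log2 odds over all tiles was -0.93 (vitamin C), 0.43 (L-proline) and 0.23 (day). Centring removes this shift. Mcts2 kept its sign and had the largest centred vitamin C log2 odds of the windows (2.11, limma adjusted p = 0.0277). Nap1l5 (0.0431) and Inpp5f (0.0471) also had an adjusted p under 0.05, unlike Zrsr1 (0.0529), Peg13 (0.0846) and Nnat (0.822). Higher centred vitamin C values were common in the genome. An unadjusted limma p under 0.05 was reached by 15592 of 50167 tiles that were higher and 1261 that were lower. The share of tiles with an adjusted p under 0.05 was not counted there, so these values cannot be called particular to the windows. The calls with centring still took the minimum difference from uncentred levels. Mcts2, Nap1l5 and Inpp5f fell short of it there (6.39, -0.677 and -3.83 points), so they were not called. With centring the vitamin C log2 odds changed sign, to 1.42 at Nap1l5, 1.18 at Inpp5f and 0.97 at Peg13. At Zrsr1 they became 1.25 (0.36 in its promoter tile). L-proline at Peg13 changed to -0.30 and day at Zrsr1 to -0.21. Other limma values near 0 changed sign: vitamin C at Nap1l5 (0.22 at 20 reads, 0.077 with read blocks once, -0.31 to 0.22 with a library left out), vitamin C at Zrsr1 (-0.37 to 0.025) and in its 23-CpG tile (-0.14 to 0.30), L-proline at Nap1l5 (-0.36 to 0.17) and Zrsr1 (0.06 at 20 reads, -0.25 to 0.20), and day at Nnat (-1.01 to 0.054) and Zrsr1 (-0.091 to 0.36). Member CpG calls went from 12 to 3 at 20 reads, where 18 of the 91 CpGs remained. Of the 48 levels, 16 left their interval at 20 reads, 1 with all CpGs listed (Nnat untreated day 5) and 1 with the mean of CpG percentages (Nnat untreated day 2, 34.6% to 23.6%), as did 9 of the 16 that had a value at 30 reads. No replicate block could be fitted because each group is 1 library. Depth limits all values: 68 to 834.5 reads per window, and PCR duplicates are not known.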
